A study of Arabidopsis thaliana with 8 samples.

Results

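On the arrays of Arabidopsis thaliana seedlings that lack the histone demethylase gene IBM1, 95 of 22746 probe sets (0.418%) stood below wild type (WT) by a rule on their means and their overlap. These members were chosen by their measured values: the mean log2 value of the IBM1 knockout arrays had to be at least 1 below the WT mean, that is, a signal lower by a factor of at least 2 on a linear scale, with both knockout values below both WT values. The difference between the IBM1 knockout and WT is therefore a description of the choice and supports nothing by itself. What the rule left unused were the arrays of the JMJ24 knockout and of the JMJ24-IBM1 double knockout.

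The series holds 8 Affymetrix ATH1 arrays, 2 for each of 4 genotypes in the Col-0 ecotype: WT, JMJ24 knockout, IBM1 knockout and JMJ24-IBM1 double knockout. The tissue was the aerial part of untreated seedlings, 12 days old, which grew on MS medium under long days of 16 h. The labels name no alleles, do not say how many plants were pooled, and leave unsaid if replicate arrays stand for separate growths of plants, so the spread between them may be technical. LHCB4.2, a light-harvesting antenna gene of green tissue, measured 12.59 to 12.89 on the 8 arrays, near their highest values of 13.35 to 13.57. The probe sets of IBM1 and JMJ24 are unnamed here, so the knocked-out transcripts gave no check of the labels.

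IBM1 is a jumonji-type demethylase that removes methyl groups from lysine 9 of histone H3 within transcribed genes. Without it, this mark and the DNA methylation coupled to it build up in gene bodies, and some genes lose transcription. JMJ24 belongs to the same protein family. In seedling shoots, growth rests on genes that loosen cell walls, build the cuticle and respond to auxin. A few genes of these kinds are among the named members. On prepared lists they were 1 of 3 measured genes for cell wall loosening and 1 of 3 for auxin response. The cuticle gene was picked with its values in view, and no shared theme was tested.

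Of the 95 members, 46 carried 1 gene name in the platform annotation, 2 carried several and 47 are unnamed here. The share with 1 name was 48.4%, against 59.4% of all probe sets. The gene table held 45 of the named ones, each a different locus. They comprised 44 protein-coding genes and 1 pseudogene (2.22%), while pseudogenes made up 6.87% of all probe sets found in that table. By chromosome there were 9 on chromosome 1 (20.0%, against 25.7% of all probe sets in that table) and 6 on chromosome 2 (13.3% against 16.4%). Chromosomes 3, 4 and 5 held 6 (13.3% against 20.4%), 10 (22.2% against 14.6%) and 13 (28.9% against 22.4%). The plastid genome held 1 (2.22% against 0.514%). These shares were not tested. Only 1 pair, AT5G02540 and AT5G02550, were direct neighbours.

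Every member lay above the median probe set in WT, which the rule favours. A fall of at least 1 needs room above the lowest values, 2.02 and 2.03 on the IBM1 knockout arrays, so the dimmest probe sets could not be members. The members' WT means ran from 3.70 to 10.06 with a median of 5.96, while the median of all probe sets was 3.44. None of the 95 had both IBM1 knockout arrays at or below the lower quartile of their array (2.50 and 2.53), a level taken as near background. On IBM1 knockout 2 alone, AT4G16870 lay below it at 2.36, as did AT1G36070, named with its values in view, at 2.49. AT2G47880 lay just above it at 2.58. The difference from WT had a median of -1.20 and reached -2.08, a signal 4.23-fold lower on the linear scale. Over the members the median distance between replicates was 0.31 in WT and 0.35 in the IBM1 knockout. Over all probe sets it was 0.08 and 0.10. The members' median WT level lay above the upper quartile of all probe sets, 5.37, and probe sets of matched level were not compared. In both JMJ24-lacking genotypes the replicates stood apart over the members: JMJ24 knockout 1 and double knockout 2 had medians of -0.48 and -0.63 against the WT mean, while JMJ24 knockout 2 and double knockout 1 lay at -0.09 and -0.08. The labels do not tell whether samples were exchanged, which was not tested, so every value of these 2 genotypes is given under its array's label.

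**Figure D1:**
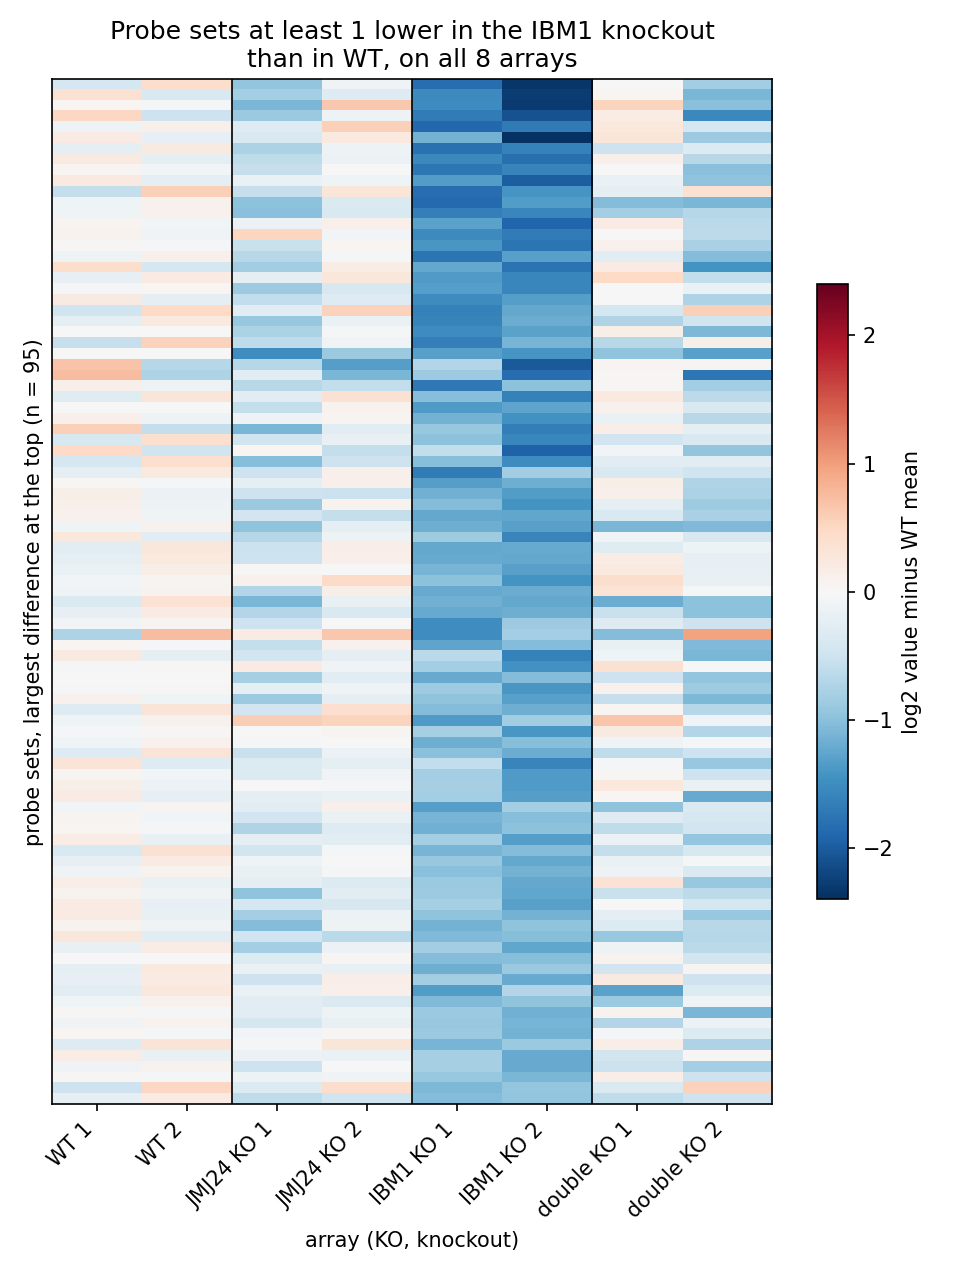
Log2 value minus the WT mean (colour) of the 95 members (lines, sorted by the difference between the IBM1 knockout and WT) on each of the 8 arrays (columns; KO, knockout). The IBM1 knockout columns are blue throughout by choice of the members, while JMJ24 knockout 1 and double knockout 2 are mostly pale blue and the other JMJ24-lacking arrays are paler, with red lines among them.

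Among the named members was EXPA8, the 1 member of 3 measured genes on a list for cell wall loosening. Other genes are placed beside it here, AT5G33370 for its role in the cuticle and AT3G62820 and AT1G33811 by gene family only. This grouping was made with the values known and was not tested. In whole aerial tissue, fewer cells of a type and less RNA per cell cannot be told apart. In the sentences with values, without IBM1 or JMJ24 stands for the single knockouts and without either for the double knockout, and the first value of a genotype is replicate 1 and the second replicate 2, all as log2 values. EXPA8, an alpha-expansin that loosens cell walls during growth, measured 7.90 and 7.49 in WT, 6.56 and 5.33 without IBM1, 7.33 and 7.92 without JMJ24, and 7.99 and 6.82 without either. One array of each JMJ24-lacking genotype lay within the WT values or above them, and the other lay between WT and the IBM1 knockout. AT3G62820, of the family of invertase and pectin methylesterase inhibitors, measured 5.70 and 5.92 in WT, 4.16 and 4.25 without IBM1, 4.80 and 5.45 without JMJ24, and 4.99 and 5.13 without either. AT1G33811, which encodes a GDSL-type esterase/lipase, measured 7.46 and 7.67 in WT, 5.69 and 6.23 without IBM1, 6.57 and 7.22 without JMJ24, and 6.53 and 6.47 without either. For both of these genes the 4 JMJ24-lacking arrays lay below WT and above the IBM1 knockout. AT5G33370, another GDSL-type gene, known as a cutin synthase and picked with its values in view, measured 4.01 and 4.69 in WT, 3.19 and 3.11 without IBM1, 3.26 and 4.17 without JMJ24, and 3.15 and 3.35 without either. Its double knockout values lay next to those of the IBM1 knockout, and JMJ24 knockout 2 lay between the WT values.

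Small defence peptides were represented by a pair of thionin genes, which encode antimicrobial peptides rich in cysteine. THI2.2 measured 7.20 and 7.05 in WT, 5.39 and 5.53 without IBM1, 6.57 and 7.13 without JMJ24, and 7.12 and 6.13 without either. AT1G66100, also of the thionin family, measured 9.15 and 9.61 in WT, 7.70 and 8.54 without IBM1, 8.88 and 9.50 without JMJ24, and 9.02 and 8.91 without either. The first had JMJ24 knockout 1 and double knockout 2 below both WT arrays, and the second had every JMJ24-lacking array within 0.5 of the WT mean. Their relative THI2.1, which is not a member, stood higher in the IBM1 knockout, with 4.29 and 6.11 against 2.50 and 2.49 in WT (limma adjusted p = 0.138). PDF1.2, the other measured gene on a list for defence hormones, was higher there too. It measured 4.07 and 3.28 against 3.04 and 3.18 in WT (limma adjusted p = 0.682). BGLU28, a beta-glucosidase gene, measured 6.15 and 4.79 in WT, 4.77 and 3.46 without IBM1, 4.79 and 4.15 without JMJ24, and 5.53 and 5.54 without either. Its WT arrays were 1.36 apart, and the lower WT array lay only just above the higher IBM1 knockout array.

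Redox genes included a pair of glutaredoxins, small thiol oxidoreductases, and a methionine sulfoxide reductase, which repairs oxidised methionine. AT2G47880, of the glutaredoxin family, measured 4.92 and 4.83 in WT, 3.36 and 2.58 without IBM1, 3.78 and 5.51 without JMJ24, and 5.41 and 3.87 without either. Its values on JMJ24 knockout 2 and double knockout 1 lay above both WT arrays, and those on the other JMJ24-lacking arrays lay about midway between WT and the IBM1 knockout. AT3G62950, the other glutaredoxin gene, measured 4.83 and 4.66 in WT, 3.22 and 3.07 without IBM1, 5.26 and 4.68 without JMJ24, and 4.73 and 4.12 without either. Here JMJ24 knockout 1 was the highest of the 8 arrays and double knockout 2 was below WT. MSRB6, the methionine sulfoxide reductase gene, picked with its values in view, measured 6.61 and 6.84 in WT, 4.98 and 5.43 without IBM1, 6.06 and 6.70 without JMJ24, and 6.47 and 5.69 without either.

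Auxin genes were few but differed among themselves. IAGLU, which encodes the enzyme that links the auxin indole-3-acetate to glucose, measured 5.14 and 5.23 in WT, 3.85 and 3.62 without IBM1, 4.30 and 4.79 without JMJ24, and 5.18 and 5.01 without either. The JMJ24 knockout lay between WT and the IBM1 knockout on both arrays, and the double knockout lay near WT. IAA29, an auxin-inducible gene of the Aux/IAA repressor family, measured 3.97 and 5.46 in WT, 3.23 and 3.89 without IBM1, 4.91 and 5.37 without JMJ24, and 3.67 and 5.68 without either. Replicate 2 exceeded replicate 1 in every genotype. In WT and the double knockout the replicates were 1.49 and 2.01 apart, more than the difference of 1.15 between WT and the IBM1 knockout. Of 17 auxin genes on a prepared list, 3 were measured under a name. Beside IAA29 these were WES1, with a difference of -0.58 (limma adjusted p = 0.434), and GH3.3, with 0.33 (limma adjusted p = 0.895).

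Plastid functions were represented by CHL, the plastid lipocalin that protects thylakoid lipids, and by psaA, a core subunit of photosystem I encoded in the plastid genome. CHL measured 6.93 and 6.50 in WT, 5.17 and 4.91 without IBM1, 6.11 and 6.57 without JMJ24, and 6.83 and 6.05 without either. For psaA the arrays measured 7.65 and 7.78 in WT, 6.39 and 6.90 without IBM1, 7.46 and 7.84 without JMJ24, and 6.74 and 7.38 without either. Both double knockout arrays lay below both WT arrays for psaA, and replicate 1 of the double knockout lay between the IBM1 knockout arrays. Of 69 plastid genome probe sets psaA was the only member; their median difference between the IBM1 knockout and WT was -0.13, from -1.07 to 1.21.

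Metabolic genes spanned several pathways, and those in this paragraph other than AT5G27410 and AT5G05890 were named after their values were seen. ALN, allantoinase, which breaks down the purine product allantoin, measured 5.16 and 5.18 in WT, 3.82 and 3.91 without IBM1, 4.60 and 5.26 without JMJ24, and 5.27 and 4.80 without either. AT1G30820, a CTP synthase of pyrimidine nucleotide synthesis, measured 5.60 and 5.98 in WT, 4.43 and 4.23 without IBM1, 5.58 and 6.06 without JMJ24, and 6.26 and 5.20 without either. In both genes JMJ24 knockout 1 and double knockout 2 lay below both WT arrays and the other JMJ24-lacking arrays did not. AT5G27410, of a family of aminotransferases that use pyridoxal phosphate, measured 4.22 and 4.20 in WT, 2.90 and 2.79 without IBM1, 2.72 and 3.31 without JMJ24, and 3.25 and 2.91 without either. All 6 knockout arrays stood below both WT arrays, and JMJ24 knockout 1 was the lowest of the 8 arrays. AT5G05890, a UDP-glycosyltransferase gene, measured 3.78 and 3.94 in WT, 2.86 and 2.73 without IBM1, 3.68 and 3.82 without JMJ24, and 3.74 and 3.51 without either. AT2G40460, of the nitrate and peptide transporter family, measured 6.41 and 5.87 in WT, 5.08 and 5.11 without IBM1, 5.66 and 5.49 without JMJ24, and 5.22 and 5.46 without either. The first of these stayed within 0.5 of the WT mean on each JMJ24-lacking array, while the second lay below both WT arrays on each of them.

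The single pseudogene was AT4G16870, a copia-type retrotransposon sequence next to the disease resistance gene RPP4 and 4 places from SNC1, another resistance gene, in the order of the gene table. It measured 4.95 and 3.97 in WT, 2.78 and 2.36 without IBM1, 3.58 and 4.33 without JMJ24, and 4.64 and 2.91 without either. Double knockout 2 lay close to the IBM1 knockout and double knockout 1 between the WT arrays. The WT arrays were 0.98 apart, while the means of the genotypes differed by -1.89.

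Further named members with large differences are given here, most of them with no function stated. AT5G25840 measured 6.32 and 5.60 in WT, 4.43 and 3.68 without IBM1, 5.15 and 5.66 without JMJ24, and 6.02 and 4.87 without either. AT5G57760 measured 4.56 and 4.99 in WT, 2.98 and 3.16 without IBM1, 4.02 and 4.64 without JMJ24, and 4.28 and 4.45 without either. SIS, a salt-induced serine-rich protein gene, measured 6.94 and 6.79 in WT, 5.58 and 4.95 without IBM1, 6.71 and 6.99 without JMJ24, and 7.06 and 6.22 without either. AT1G67865, whose name was not found in the gene table, measured 9.64 and 9.58 in WT, 8.21 and 7.85 without IBM1, 9.07 and 9.66 without JMJ24, and 9.72 and 8.84 without either. In 3 of these 4 genes JMJ24 knockout 1 and double knockout 2 stood below both WT arrays while JMJ24 knockout 2 and double knockout 1 did not. AT5G57760 was the exception. The same held for 23.2% of the members and 18.3% of all probe sets, and the 4 genes were picked by the size of their difference. The unnamed probe set with the largest difference, 256589_at, measured 6.71 and 7.55 in WT, 5.29 and 4.80 without IBM1, 6.18 and 7.04 without JMJ24, and 7.13 and 6.29 without either. The next unnamed ones, 260957_at and 256300_at, differed by -1.79 and -1.66.

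**Figure D2:**
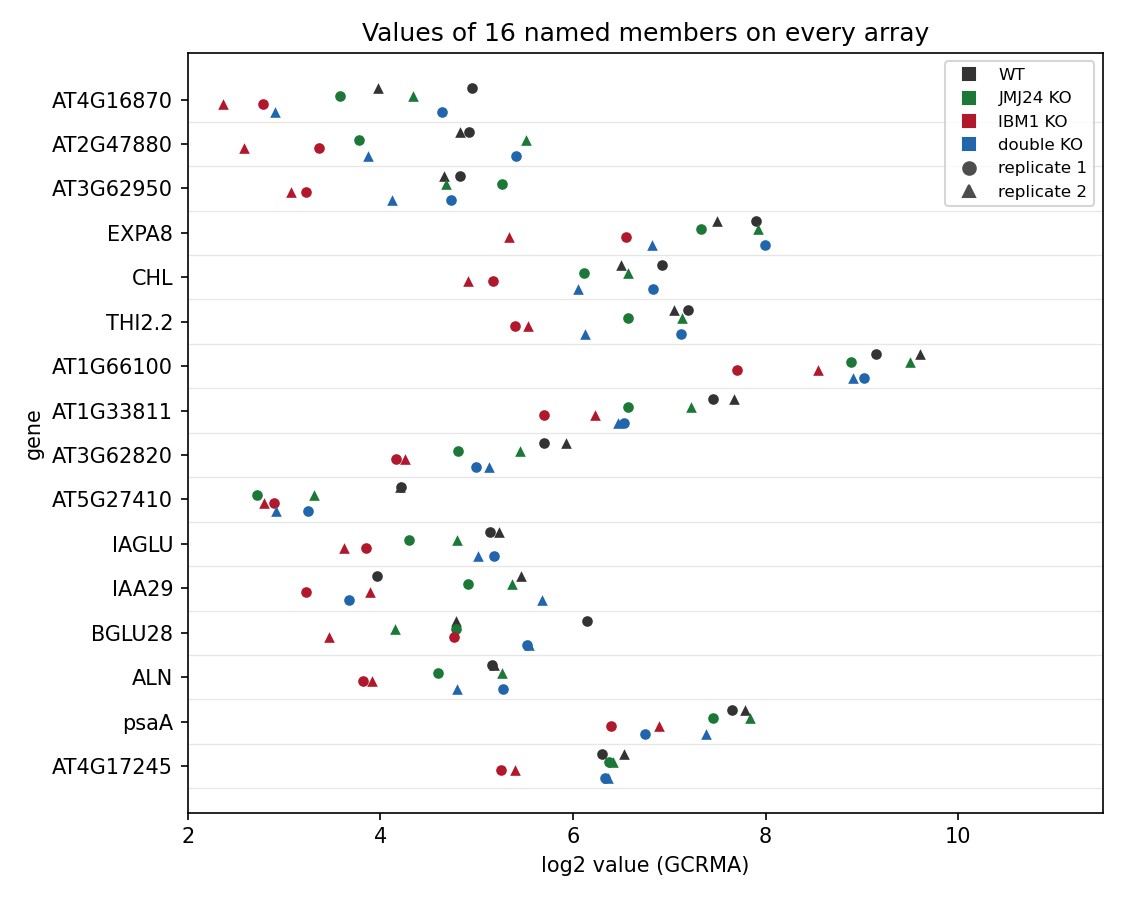
Log2 values (horizontal axis) of 16 named members (vertical axis) on every array; colours give the genotype and symbols the replicate (KO, knockout). For AT4G17245 the 4 JMJ24-lacking arrays lie among the WT values, for AT5G27410 they lie with the IBM1 knockout, and for AT2G47880 a pair lies above WT and a pair about midway between WT and the IBM1 knockout.

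A model with 1 mean per genotype, fitted with limma to all 22746 probe sets, called 16 of them (0.0703%) lower in the IBM1 knockout at a Benjamini-Hochberg adjusted p under 0.05. Among the members it called 2, AT4G17245 and AT5G05890, and nothing is read from that count, since the rule used the same contrast. AT4G17245, of the RING-type ubiquitin ligase family, stood at 6.42 ± 0.159 in WT and 5.32 ± 0.106 in the IBM1 knockout (mean ± SD, n = 2, limma adjusted p = 0.0327). Its JMJ24-lacking arrays measured 6.37, 6.41, 6.34 and 6.37, all between the WT values of 6.31 and 6.53. The named members just inside the limit of 1 were AT2G37480 at -1.02, AT3G16750 at -1.01 and AT5G54530 at -1.002, and those just outside were AT1G79510 at -0.996, AT5G47610 at -0.992 and AT4G33666 at -0.989. A further 3 probe sets had a mean difference of at least 1 but overlapping arrays.

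How the members stood in the other knockouts was read next. These comparisons share the WT arrays with the rule, which picked probe sets with high WT values, so they are given as descriptions with no test. The JMJ24 knockout had a median difference from WT of -0.26 over the members and of 0.00 over all probe sets. Both of its arrays lay below both WT arrays for 30 of the 95 members, as they did for 12.0% of all probe sets, and above them for 2, AT4G16000 and the glycine-rich protein gene AT2G05540, against 12.4%. The double knockout had a median of -0.38, with 31 members below WT without overlap against 11.5% of all probe sets, and 0 above against 13.1%. A mean at least 1 lower without overlap was seen for 1 member in the JMJ24 knockout (0.0835% of all probe sets) and for 4 in the double knockout (0.0879%). The first was AT5G27410, and the others were AT5G27410, AT1G33811, AT5G33370 and a probe set that carries several gene names.

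Set against the IBM1 knockout, whose arrays the rule also used, members stood higher in the other knockouts. Without overlap this held for 89 of 95 in the JMJ24 knockout, against 18.5% of all probe sets, and for 79 in the double knockout, against 16.2%. The double knockout, which lacks IBM1 too, had a median 0.85 above the IBM1 knockout.

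The replicates of both JMJ24-lacking genotypes disagreed. Relative to the WT mean, the members had a median of -0.48 on JMJ24 knockout 1 and of -0.09 on JMJ24 knockout 2, and of -0.08 on double knockout 1 and -0.63 on double knockout 2. The medians of all probe sets lay between -0.01 and 0.01 on these arrays. As a share of each member's own difference between WT and the IBM1 knockout, the median on replicates 1 and 2 was 40.3% and 7.09% for JMJ24 loss, and 7.48% and 46.4% for both losses. Values below both WT arrays were seen for 73 members on JMJ24 knockout 1 (42.9% of all probe sets), 34 on its replicate (21.8%), and 38 and 76 on double knockouts 1 and 2 (22.8% and 48.2%). The medians therefore depended on 1 array each: for JMJ24 loss -0.09 without JMJ24 knockout 1 and -0.48 without JMJ24 knockout 2, and for both losses -0.63 without double knockout 1 and -0.08 without double knockout 2.

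**Figure D3:**
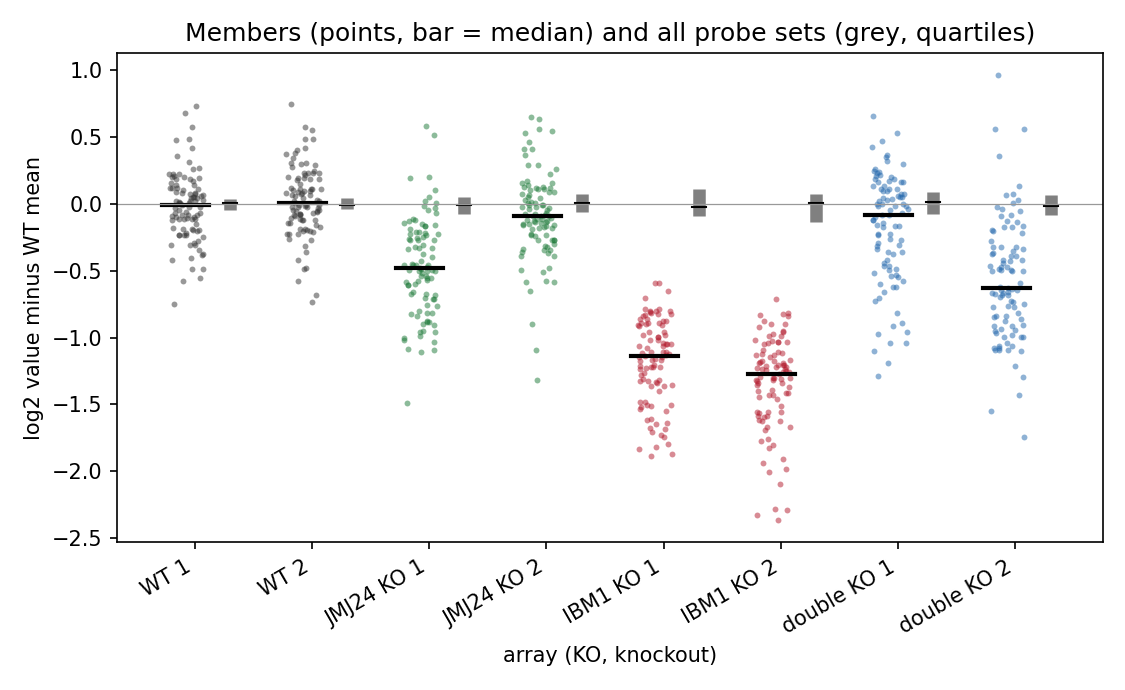
Log2 value minus the WT mean (vertical axis) of the 95 members (points; black bar, median) on each array (horizontal axis; KO, knockout), beside the lower to upper quartile of all probe sets (grey; thin line, median). The medians of the members are -0.48 and -0.09 where JMJ24 is lost, and -0.08 and -0.63 where both are lost, while the grey bars stay near 0.

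Patterns of the 4 JMJ24-lacking arrays, set after the values were seen, sort part of the members. Each compares with the WT arrays, for which the rule picked high values, so the shares are descriptions with no test. In 22 members (23.2%), 13 of them named, JMJ24 knockout 1 and double knockout 2 lay below both WT arrays and the others did not. That share was near the 18.3% of all probe sets, and EXPA8, CHL, THI2.2 and AT4G16870 were among the 22. In 15 members (15.8%), 7 of them named, all 4 arrays lay below both WT arrays, against 5.39% of all probe sets. Among the 7 named ones the largest differences were those of AT1G33811, AT3G62820, AT5G27410 and AT1G52510, the last an alpha/beta hydrolase gene, which measured 7.83 and 7.79 in WT, 6.59 and 6.76 without IBM1, 7.00 and 7.54 without JMJ24, and 7.32 and 6.87 without either. In 17 members (17.9%), 8 of them named, all 4 arrays lay within 0.5 of the WT mean, against 87.1% of all probe sets. The median WT level was 5.96 over the members and 3.44 over all probe sets, and low values are compressed near the floor. Beside AT1G66100 and AT4G17245 the 17 members included AT4G16000 and AT3G49160. AT3G49160, of the pyruvate kinase family, measured 5.02 and 5.07 in WT, 4.23 and 3.58 without IBM1, 5.24 and 4.95 without JMJ24, and 5.41 and 5.05 without either. The patterns overlap in 4 members, and 45 members fit none of them.

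Differences between replicates of the JMJ24-lacking genotypes share no array with the rule. They were not shown to be independent of it. Over the members, replicate 1 minus 2 correlated with WT 1 minus WT 2 at 0.362 (JMJ24 knockout) and 0.595 (double knockout). JMJ24 knockout 1 lay below JMJ24 knockout 2 in 79 of the 95 members, against 65.4% of all probe sets, and double knockout 2 below double knockout 1 in 69, against 65.7%. Both held for 58 members and for 49.3% of all probe sets. The median of JMJ24 knockout 1 minus 2 was -0.43 over the members and -0.02 over all probe sets. For double knockout 2 minus 1 it was -0.44 and -0.02. Member by member the sizes were not correlated (-0.023 over the 95 members), where the correlation was 0.310 over all 22746 probe sets. These probe sets share the same 4 arrays and are not independent.

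A second pattern of the replicates followed the WT arrays. Over the members, WT 1 minus WT 2 and double knockout 1 minus double knockout 2 correlated at 0.595, and at 0.548 without IAA29, against 0.164 over all probe sets. For the JMJ24 knockout the correlation with WT was 0.362 over the members and 0.0367 over all probe sets. The rule used these WT arrays, and the probe sets are not independent, so the correlations are descriptions with no test. AT5G62280 and AT5G12050, named after their values were seen, stood out beside IAA29. AT5G62280 measured 5.88 and 6.85 in WT, 4.75 and 5.15 without IBM1, 6.10 and 6.92 without JMJ24, and 5.95 and 6.93 without either. AT5G12050 measured 7.82 and 8.92 in WT, 6.73 and 7.25 without IBM1, 7.77 and 8.29 without JMJ24, and 7.71 and 8.50 without either. Each was higher on replicate 2 than on replicate 1 in all 4 genotypes. AT1G13650, also named after its values were seen, was higher on replicate 1 throughout and measured 7.51 and 6.05 in WT, 5.91 and 4.95 without IBM1, 6.51 and 5.68 without JMJ24, and 6.81 and 5.04 without either.

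**Figure D4:**
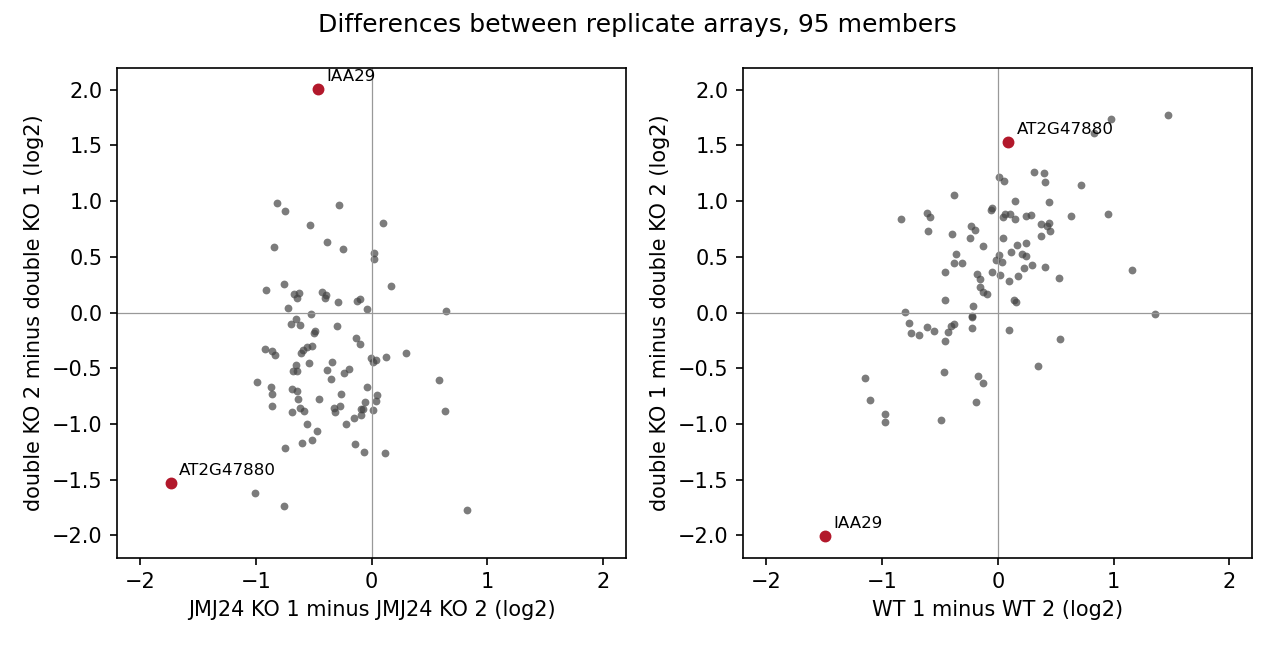
Differences between replicate arrays on the log2 scale for the 95 members (points; KO, knockout): on the left the JMJ24 knockout (horizontal) against the double knockout (vertical), on the right WT (horizontal) against the double knockout (vertical). Most points on the left lie below 0 on both axes without a slope (correlation -0.023), and those on the right mostly share their sign (0.595).

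Double knockout minus JMJ24 knockout asked whether IBM1 loss lowered these probe sets where JMJ24 is lacking as well. It is the one pairwise contrast that shares no array with the rule. The double knockout mean was lower for 68 of the 95 members, against 49.0% of all probe sets, with a median of -0.09 over the members and of 0.00 over all. No member was called by limma at an adjusted p under 0.05, and 0 (0%) of all 22746 probe sets were. At an unadjusted p under 0.05 stood 0 members that were lower, against 1.78% of all probe sets, and 1 that was higher, IAGLU, against 1.57%. Arrays did not overlap for 8 members that were lower (9.71% of all probe sets) and for 4 that were higher (10.7%), namely IAGLU, BGLU28, AT5G02540 and the unnamed 251143_at. The median changed sign with the arrays used: it was 0.15 without double knockout 2, 0.06 without JMJ24 knockout 2, -0.30 without double knockout 1 and -0.30 without JMJ24 knockout 1.

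IAGLU had the lowest p of the named members. It stood 0.55 higher in the double knockout than in the JMJ24 knockout (SE 0.181, limma adjusted p = 1), at 5.10 ± 0.120 against 4.55 ± 0.348 (mean ± SD, n = 2). BGLU28 stood 1.06 higher (SE 0.618, limma adjusted p = 1), and AT5G02540, a dehydrogenase gene of the Rossmann-fold type, 0.48 higher (SE 0.335, limma adjusted p = 1). On the lower side psaA differed by -0.59 (SE 0.283), AT3G62950 by -0.54 (SE 0.273) and AT5G54530 by -0.42 (SE 0.235), each with a limma adjusted p of 1. None of these differences passed the test. With 1 array left out, 5 of the 6 came down by a factor of over 1.5. IAGLU came to 0.30 and AT5G02540 to 0.22 without JMJ24 knockout 1, and psaA to -0.27 without double knockout 1. AT3G62950 came to -0.24 without double knockout 2, and AT5G54530 to -0.16 without JMJ24 knockout 2. BGLU28 ran from 0.74 to 1.38.

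The neighbours AT5G02540 and AT5G02550 differed in this respect. AT5G02540 measured 3.71 and 4.51 in WT, 3.09 and 2.60 without IBM1, 3.09 and 3.61 without JMJ24, and 3.84 and 3.83 without either. AT5G02550 measured 5.91 and 5.08 in WT, 4.27 and 3.72 without IBM1, 4.66 and 5.67 without JMJ24, and 5.68 and 4.06 without either. WT 1 was the lower WT array for the first gene and the higher one for the second, and both double knockout arrays were alike for the first and 1.62 apart for the second.

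Lists of pathways in seedling shoots, 10 in all, held 140 genes. Named probe sets covered 21 of them, and 2 of the 21, EXPA8 and IAA29, are members. No list gene was called for the double knockout against the JMJ24 knockout. Of the cell wall loosening list, 3 of 10 genes were measured; beside EXPA8, XTH16 differed by 0.39 between the IBM1 knockout and WT (limma adjusted p = 0.932), and XTH20 lay near background, at 2.40 to 2.59 on all arrays. Both flowering genes measured stood lower in the IBM1 knockout without being members, SNZ by -0.44 (limma adjusted p = 0.527) and SMZ by -0.40 (limma adjusted p = 0.176). Measured genes of the other lists, 6 for cold, 2 for defence hormones, 2 for glucosinolates and 1 each for the clock, light and silencing, held no member, and no gene of the nitrogen and iron list was measured under a name.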

How the data were processed

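Gene expression was measured on 8 single-colour ATH1 arrays, 2 per genotype, and the labels gave each array its genotype and replicate number. Each probe set has 1 log2 value per array in the authors' deposited table, made with GCRMA per the submitters' processing notes; its version and any filter are not given in the sources used here. GCRMA corrects background by probe sequence and quantile normalises, so low values are compressed near the floor. Precision is limited by the number of arrays.

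The table held 22810 probe sets, of which 64 controls were left out. Names came from the platform annotation, updated by Entrez ID through the RefSeq gene table of TAIR10.1, used only for names and gene order. With limma 3.58.1 (R 4.3.3), genotype means were estimated from the 8 arrays together (lmFit and eBayes, 4 residual degrees of freedom), with p-values adjusted by Benjamini-Hochberg over all 22746 probe sets. The fit was also run on data simulated with independent noise, as a check of the code. That check did not require differences as small as those of the members in double minus JMJ24 knockout to be called. A probe set was called at an adjusted p under 0.05.

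The members and gene lists were chosen with earlier results of these data known. By the naming rule the text names the 12 members with 1 gene name and the largest difference, members on a list, members called for IBM1 loss, the 3 lowest p each way for double minus JMJ24 knockout, the 3 genes either side of the threshold, the 4 largest of the patterns below WT and near WT, the 3 largest unnamed members, and neighbours; others are marked in the text. Families were not formed by description, as the gene table holds none. Promoter motifs were not searched and no sequences were used here. Alternatives were quantile normalization on top, centring, removal of probe sets with no group mean of 5 or more, limma-trend, the 2 groups alone, a replicate block, thresholds of 0.8 and 1.5, overlap allowed, and leaving out each array; a crossed pairing was added after seeing the data.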

Additional observations from a re-analysis of the deposited data

Results flagged for a closer look

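Members are lower in the IBM1 knockout than in WT by choice. The arrays of the double knockout did not overlap those of the JMJ24 knockout in 12 members: they were higher in 4, against 10.7% of all probe sets, and lower in 8, against 9.71%. The higher ones drew attention since they run opposite to the choice. Double minus JMJ24 knockout was 0.55 for IAGLU, 0.48 for AT5G02540, 1.06 for BGLU28 and 0.66 for the unnamed probe set 251143_at, and none of these passed the test (limma adjusted p = 1 each). The interaction term, which also uses the WT and IBM1 knockout arrays of the rule, did not pass either: its limma adjusted p was 0.189 for IAGLU, 0.495 for AT5G02540, 0.602 for BGLU28 and 0.620 for 251143_at.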

How the results depend on the processing

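The number of members depended on the threshold and the arrays: 233 at a threshold of 0.8, 17 at 1.5, and 95 to 193 with 1 array left out. Without IBM1 knockout replicate 1 the rule took 193, of which 81 were among the 95, and without WT replicate 1 or WT replicate 2 it took 154 each, with 75 and 70 shared. Without IBM1 knockout replicate 2 it took 106, and 63 of these were among the 95, the smallest overlap with 1 array left out. Centring on array medians gave 112, quantile normalization on top 99, overlap allowed 98 and the filter on dim probe sets 74. With 1 array left out, the median over the members ran from -0.48 to -0.09 for JMJ24 loss, from -0.63 to -0.08 for both losses and from -0.30 to 0.15 for double minus JMJ24 knockout. Medians moved by less than the spread between replicates under the other alternatives. For double minus JMJ24 knockout, the alternatives that kept both replicates of each genotype called 0 members. Over all probe sets they called 0 too, except limma-trend with 1 that is no member. The count of 0 is therefore not particular to the members. With the replicate block the count was likewise 0. Same-numbered arrays of the JMJ24 and double knockouts deviated in opposite directions (correlation -0.310 over all probe sets), and the crossed pairing, chosen after seeing the data, also gave 0 calls. The 6 named differences of this contrast kept their sign under each alternative that gave a value, but 5 of them came down by a factor of over 1.5 with 1 array left out: IAGLU ranged from 0.30 to 0.80, AT5G02540 from 0.22 to 0.74, psaA from -0.91 to -0.27, AT3G62950 from -0.85 to -0.24 and AT5G54530 from -0.68 to -0.16.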
